A study of Mus musculus with 12 samples.

Results

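The response of the mouse lung to ovalbumin was compared between mice labelled Has2+/- and wild-type (WT) mice by the interaction of genotype and treatment. For each gene the WT change between ovalbumin and saline was subtracted from the Has2+/- change between ovalbumin and saline, both as log2 differences. A negative interaction means that the Has2+/- change was the lower of the 2 changes and a positive one that it was the higher. All 12 of the 12 libraries of the study entered, and 19017 of the 49585 genes in the table were tested, those whose mean reached 1 normalized unit in any group. The 4 groups of 3 libraries were Has2+/- mice given ovalbumin (libraries 7 to 9), Has2+/- mice given saline (10 to 12), WT mice sensitized and given ovalbumin through the nose (1 to 3) and WT mice given saline (4 to 6). All were whole lung tissue of C57BL/6 mice. For both ovalbumin groups the titles state 24 after stimulation, without a unit. They name no difference in ovalbumin treatment between the genotypes. No age is given. The labels do not say which part of Has2 is missing or where, or whether a group's 3 libraries came from 3 animals, so p-values measure the spread between these libraries, which may be technical.

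Has2 encodes a hyaluronan synthase, a membrane enzyme that spins out hyaluronan, a very long sugar polymer of the extracellular matrix. Hyaluronan is bound by CD44 and other receptors, holds water in tissue, and is known to build up and be broken into fragments in inflamed airways. Mice sensitized to ovalbumin and then exposed to it through the airways develop an allergic inflammation led by type 2 cytokines, with eosinophils and mucus-filled airway cells. In whole tissue, fewer cells of a type and less RNA per cell cannot be told apart.

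The values are the authors' normalized units, forced to 1 common distribution in all libraries, so library depth is unknown and low values are imprecise. Has2 itself was low, with 6.67, 5.75 and 11.2 units in the Has2+/- ovalbumin libraries, 7.67, 8.17 and 7.42 in the Has2+/- saline libraries, 3.50, 6.42 and 10.2 in the WT ovalbumin libraries and 6.67, 4.42 and 6.08 in the WT saline libraries. The 4 groups overlapped, so Has2 did not separate the genotypes. Library 3 (WT ovalbumin) and library 12 (Has2+/- saline) stood apart from their groups on the first principal component. Library 12 sat at -9.57 and the other Has2+/- saline libraries at 60.0 and 50.3, and library 3 sat at 27.7 and the other WT ovalbumin libraries at -68.7 and -56.5. The summed level of 10 squamous epithelium genes, markers of a lining not found in the alveoli, ran from 47.8 to 422 units in Has2+/- ovalbumin, 179 to 35998 in Has2+/- saline, 27.3 to 28368 in WT ovalbumin and 2016 to 31519 in WT saline. Between 0 and 4 of the 10 genes were at 0 in a library. The lowest Has2+/- saline value was that of library 12 and the highest WT ovalbumin value that of library 3. Skeletal muscle genes followed the same libraries, with 95.8 to 131 units in Has2+/- ovalbumin, 1046 to 12926 in Has2+/- saline, 72.5 to 10295 in WT ovalbumin and 3699 to 10298 in WT saline.

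**Figure D1:**
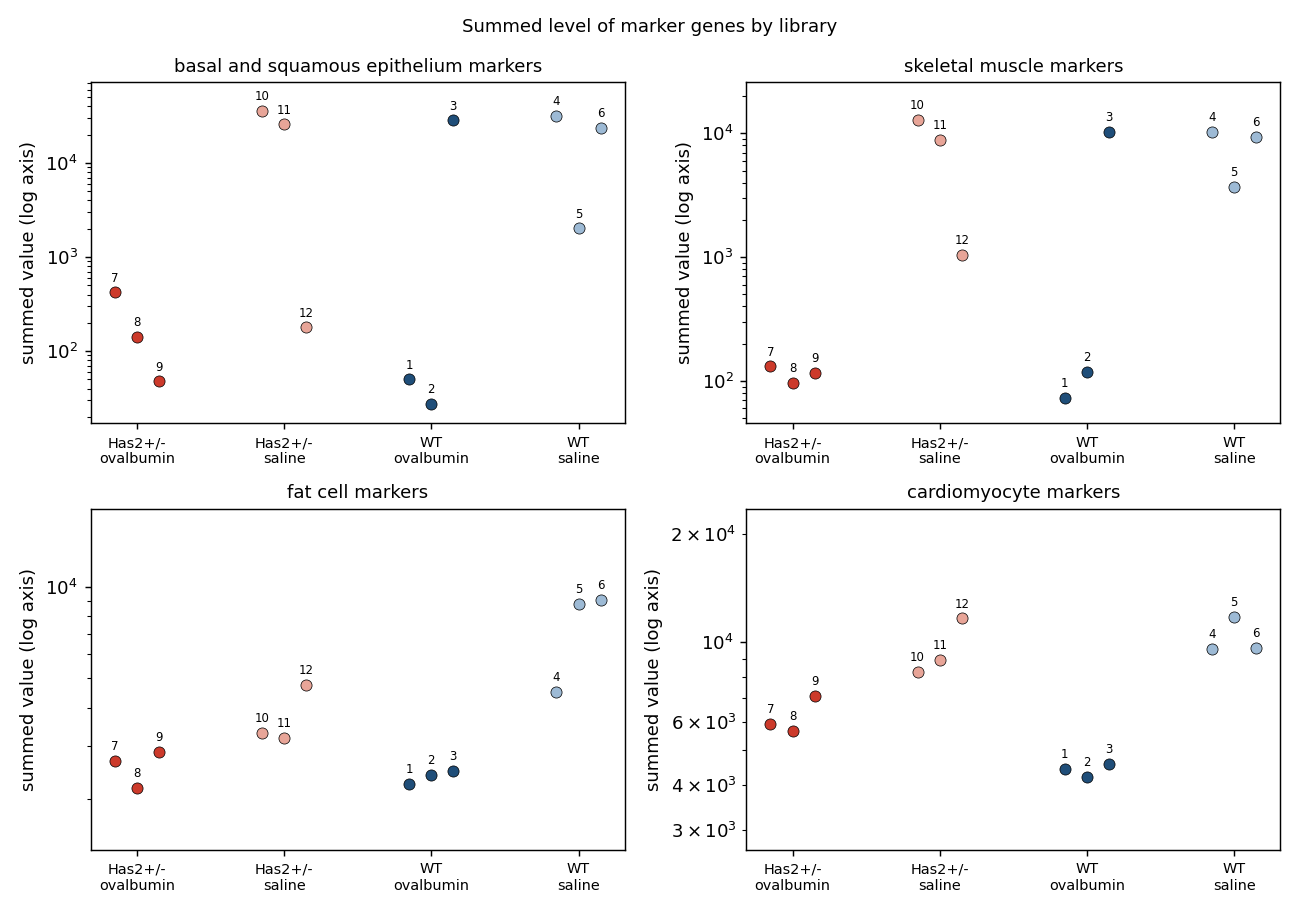
Summed normalized level (log axis) of marker genes of squamous epithelium, skeletal muscle, fat cells and cardiomyocytes in each of the 12 libraries. Library 3 of WT ovalbumin lies with the saline libraries for squamous and muscle genes, and library 12 of Has2+/- saline lies low for squamous genes.

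In the test of the interaction with limma and Benjamini-Hochberg adjustment, 3 of 19017 genes (0.0158%) had an adjusted p below 0.05. Muc16, a membrane mucin, was the 1 gene on the higher side (0.00526%), and Hamp2, a hepcidin gene, and Junb, a subunit of the AP-1 transcription factor, were the 2 on the lower side (0.0105%). At an unadjusted p below 0.05 there were 1625 genes (8.54%), 969 higher (5.1%) and 656 lower (3.45%). Hamp2 differed from the other genes in being listed at or near 0 in every group except Has2+/- saline. Junb and Muc16 shared another form: their WT values moved with ovalbumin, Junb up and Muc16 down, while the Has2+/- values of the 2 treatments lay together. Under the 21 alternatives tried, Hamp2 passed in 16, Junb in 7 and Muc16 in 3, and the direction of each was the same in all 21.

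Hamp2 lies on the minus strand of chromosome 7 (mm10, chr7:30922389-30924681), next to Hamp, and both encode hepcidins. The hepcidin of Hamp is a peptide hormone, made mainly in the liver, that limits the export of iron from cells. Whether Hamp2 has a role in iron handling was not tested. The copies are near-identical: over the transcripts Hamp2-201 and Hamp-201, 388 of 410 aligned bases (94.6%) were the same. How the authors' counting split reads between them is not given in the sources used here, so both are reported as uncertain. The windows around the 2 gene starts (250 bases before to 50 after, RefSeq, GRCm38.p6, minus strand) are shown because 1 copy passed the test and the other did not. The Hamp2 window is chr7:30924132-30924431 and the Hamp window chr7:30943980-30944279. The Hamp2 window lies within the gene span given above, so the 2 annotations place its start differently. Positions below are counted from the RefSeq starts. Capitals mark matches to 3 motifs searched on both strands: TTCNNNGAA, bound by STAT factors, TGANTCA, bound by AP-1, and GGCGCC, the bone morphogenetic protein response element known from the human hepcidin promoter.
Hamp2: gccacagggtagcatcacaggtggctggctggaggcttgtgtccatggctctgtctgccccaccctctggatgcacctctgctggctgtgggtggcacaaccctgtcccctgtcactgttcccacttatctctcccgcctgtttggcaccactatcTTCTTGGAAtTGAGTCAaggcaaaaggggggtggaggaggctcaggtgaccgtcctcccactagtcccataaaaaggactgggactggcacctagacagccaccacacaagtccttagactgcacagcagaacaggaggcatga
Hamp: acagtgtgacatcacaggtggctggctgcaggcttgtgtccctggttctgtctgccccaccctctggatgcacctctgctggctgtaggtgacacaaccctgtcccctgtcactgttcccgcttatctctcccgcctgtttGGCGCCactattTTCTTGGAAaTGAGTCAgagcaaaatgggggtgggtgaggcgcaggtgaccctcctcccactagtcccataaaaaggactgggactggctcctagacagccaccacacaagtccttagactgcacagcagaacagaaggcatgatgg
Over the windows 276 of 297 aligned bases (92.9%) were the same. The match TTCTTGGAA lies at -94 in Hamp2 and -97 in Hamp, counted from the gene start, and TGAGTCA at -84 in Hamp2 and -87 in Hamp. GGCGCC lies at -109 in Hamp and is not in these letters of the Hamp2 window. Of all 32851 RefSeq windows of this length, 8.3% hold the STAT motif, 7.81% the AP-1 motif and 11.9% GGCGCC. A match describes the sequence and is not a site shown to be bound.

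Hamp2 was listed at 0 in all 3 Has2+/- ovalbumin libraries. It had 62.1, 59.2 and 63.9 units in the Has2+/- saline libraries, was listed at 0 in all 3 WT ovalbumin libraries, and had 1.83, 0 and 0 units in the WT saline libraries. Has2+/- saline was high and the other 9 libraries were at or near 0, with no overlap. Library 12, which stood apart from the rest of its group, held the highest value of its group. On the log2(value + 1) scale the interaction was -5.47 ± 0.67 (SE; 95% interval -6.88 to -4.06; adjusted p = 0.00627, limma). The Has2+/- change was -5.97 (adjusted p = 1.29e-05) and the WT change -0.50 (adjusted p = 0.51). Has2+/- exceeded WT by 5.47 under saline (adjusted p = 4.74e-05). The WT saline values left almost no room for a fall, so the interaction rests on this saline difference. With groups listed at 0 the fitted size depends on the pseudocount, and no fold is given. Its interaction was -7.85 (adjusted p = 0.295) with a pseudocount of 0.1 and -3.59 (adjusted p = 1.09e-05) with 5. The call was lost without library 10 (adjusted p = 0.0523), without library 11 (adjusted p = 0.0503), without libraries 3 and 12 together (adjusted p = 0.0653) and with a minimum mean of 10 units (adjusted p = 0.218). Among all genes of the table, Hamp2 was the 1 gene with at least 20 units in all libraries of 1 group and at most 2 in the other 9. These limits were set to describe the pattern of Hamp2, so that Hamp2 met them was fixed in advance.

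Hamp had 11.2, 7.92 and 16.1 units in Has2+/- ovalbumin, 8.67, 10.1 and 11.9 in Has2+/- saline, 6.67, 2.67 and 8.50 in WT ovalbumin and 5.75, 14 and 17.8 in WT saline. Its groups overlapped, and its interaction of 1.09 ± 0.63 (SE) did not pass (adjusted p = 0.665). Usf2, the neighbouring transcription factor gene, had 299.5 to 394 units over the 12 libraries and an interaction of -0.35 (adjusted p = 0.495). Gm44662, which overlaps Hamp2 on the other strand, was listed at 0 in the Has2+/- saline libraries.

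Of the 9 tested genes of a list of iron handling, Hamp2 was the 1 that passed, and 6 including Hamp2 were below 0 at an unadjusted p below 0.05, against 3.45% of all genes. Hmox1, which breaks down heme, had 694, 383 and 318 units in Has2+/- ovalbumin, 230.3, 294 and 291 in Has2+/- saline, 1003, 1188 and 777 in WT ovalbumin and 226, 215 and 223 in WT saline. All WT ovalbumin values lay above every other library, and the interaction was -1.44 (adjusted p = 0.438). Slc11a1, a metal transporter of phagocytes, had an interaction of -1.25 (adjusted p = 0.404). Hmox1 and Slc11a1 passed when library 7 was left out. The ferritin chains Fth1 and Ftl1, which store iron, had -0.35 (adjusted p = 0.461) and -0.41 (adjusted p = 0.546). Slc40a1, the iron exporter ferroportin that the hepcidin of Hamp binds, had -0.79 (adjusted p = 0.523), with its highest value, 170.4 units, in Has2+/- saline library 11. With ovalbumin 1 of the 9 rose in Has2+/-, against 1.85% of all genes, and 5 rose in WT, against 8.65%. Tfrc, the transferrin receptor that takes up iron, rose in both (0.55 in Has2+/-, adjusted p = 0.0446, and 0.61 in WT, adjusted p = 0.00709), with an interaction of -0.07 (adjusted p = 0.946). For Hmox1, Slc11a1, Fth1 and Ftl1 the adjusted p of the Has2+/- change was 0.155 to 0.834, and in WT they rose by 2.13, 1.36, 0.57 and 0.61.

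Junb is on the minus strand (mm10, chr8:84974484-84978718). It had 1006, 854 and 786 units in Has2+/- ovalbumin, 843, 997 and 812 in Has2+/- saline, 1758, 1342 and 1630.2 in WT ovalbumin and 709.8, 743 and 683 in WT saline. The 3 WT ovalbumin libraries lay above the other 9, and the 2 Has2+/- groups overlapped. The interaction was -1.14 ± 0.16 (SE; 95% interval -1.48 to -0.81; adjusted p = 0.0331, limma), from a Has2+/- change of -0.01 (adjusted p = 0.99) and a WT change of 1.14 (adjusted p = 8.19e-05). Has2+/- was below WT under ovalbumin by a log2 difference of -0.84 (adjusted p = 0.00563), and the difference under saline was 0.31 (adjusted p = 0.798). Over all alternatives the interaction lay between -1.26 and -1.05 and the adjusted p between 0.00367 and 0.187. Among single libraries, the call held without library 2, 7 or 12 (adjusted p = 0.00367, 0.0092 and 0.0252) and was lost without any of the other 9, at an adjusted p of 0.0605 to 0.187. Prdx2, which overlaps Junb on the other strand, had 378 to 465 units over the 12 libraries and an interaction of -0.02 (adjusted p = 0.969).

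Muc16 is on the minus strand of chromosome 9 (mm10, chr9:18495455-18674530). It encodes a very large mucin tethered to the cell surface, found on airway and mesothelial lining cells. It had 405, 517 and 448 units in Has2+/- ovalbumin, 478, 447 and 448 in Has2+/- saline, 279, 321 and 333 in WT ovalbumin and 628, 526 and 576 in WT saline. The 3 WT ovalbumin values were the lowest and the 3 WT saline values the highest of the 12, while the Has2+/- groups overlapped between them. The interaction was 0.88 ± 0.14 (SE; 95% interval 0.59 to 1.17; adjusted p = 0.0481, limma), from a Has2+/- change of -0.01 (adjusted p = 0.97) and a WT change of -0.89 (adjusted p = 8.29e-05). The call lay just inside the threshold. Over the alternatives the value was 0.79 to 0.96 and the adjusted p 0.00928 to 0.262, and among single libraries it was past the threshold only without library 7. With the mean level of the squamous genes as a covariate, added after the data had been seen, the interaction was -5.46 for Hamp2, -1.14 for Junb and 0.88 for Muc16, and all 3 passed (adjusted p = 0.00784, 0.0198 and 0.0333).

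**Figure D2:**
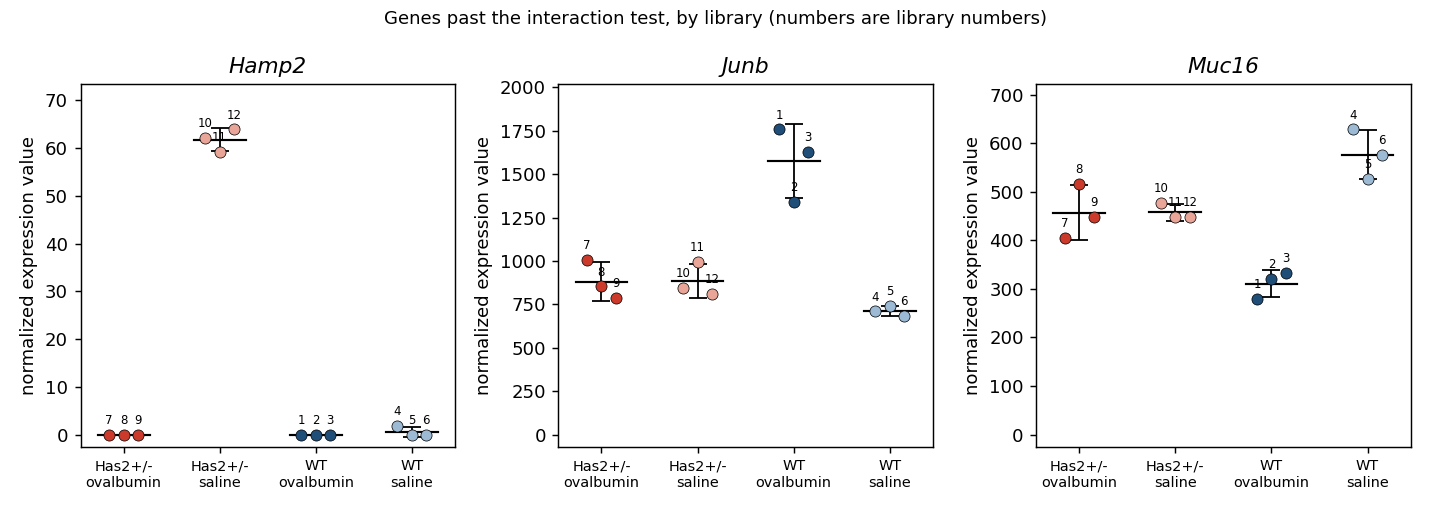
Normalized units of Hamp2, Junb and Muc16 in each library (points) with the mean and SD of 3 libraries per group. Hamp2 is at 59.2 to 63.9 in Has2+/- saline and at most 1.83 elsewhere, while Junb is highest and Muc16 lowest in WT ovalbumin.

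Most genes that changed with ovalbumin in Has2+/- mice changed in WT mice too, in the same direction, while most of the larger number called in WT were not called in Has2+/-. In Has2+/- mice 532 genes (2.8%) changed with ovalbumin, 351 higher (1.85%) and 181 lower (0.952%). In WT mice 3175 (16.7%) changed, 1645 higher (8.65%) and 1530 lower (8.05%). There were 394 genes called in both, 393 of them in the same direction, which is 73.9% of the Has2+/- calls and 12.4% of the WT calls. A gene called in WT and not in Has2+/- is not thereby shown to differ. The 1645 genes higher in WT, which were chosen on the WT change, had a median change of 0.33 in Has2+/- and 0.63 in WT. The 1530 lower in WT had medians of -0.23 in Has2+/- and -0.46 in WT. The 351 genes higher in Has2+/-, chosen on the other change, had medians of 0.62 in Has2+/- and 0.68 in WT, and the 181 lower in Has2+/- had -0.46 in Has2+/- and -0.42 in WT. Each list was chosen on 1 of the 2 changes it is described by, and no test was made on these medians. The median absolute change over all genes was 0.19 in Has2+/- and 0.26 in WT. The correlation of the 2 changes across genes was 0.640 (Pearson) and 0.494 (Spearman). This is a description over genes of 2 contrasts that share no library, and genes are not independent replicates.

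The precision was limited. The median SE was 0.24 for the interaction against 0.17 for each response, and the median 95% interval reached 0.52 to either side. For 11259 genes (59.2%) the whole interval of the interaction lay between -1 and 1, and this held for 295 of the 394 genes called in both genotypes. The median interaction over all genes was 0.02, and 47.7% of genes were below 0. The number of Has2+/- calls depended on single libraries, from 42 higher genes without library 10 to 540 without library 1.

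**Figure D3:**
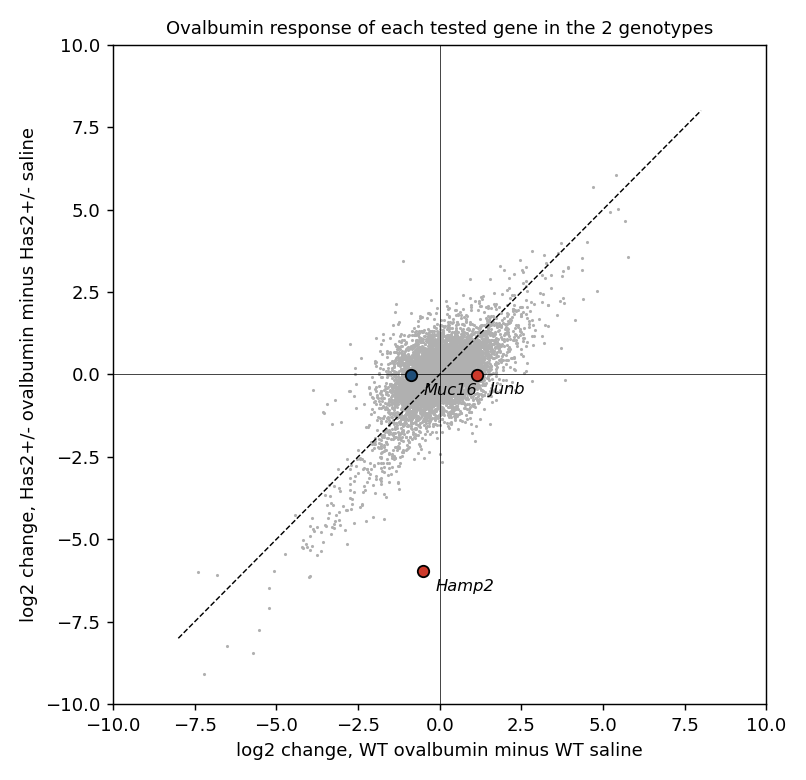
Change with ovalbumin in Has2+/- (vertical axis, log2) against the change in WT (horizontal axis, log2) for all 19017 tested genes, with the dashed line marking equal changes. Hamp2 and Junb lie below the line and Muc16 above it.

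The genes ranked next to the 3 did not pass, and are given as values. On the higher side, the leading genes included several of motile cilia. Hydin, a protein of the central pair of the ciliary axoneme, had 889, 939 and 956 units in Has2+/- ovalbumin, 768, 759.7 and 854 in Has2+/- saline, 731, 751 and 779 in WT ovalbumin and 902, 885 and 984 in WT saline. Its Has2+/- ovalbumin values lay above the Has2+/- saline ones and its WT ovalbumin values below the WT saline ones, and the interaction was 0.52 (adjusted p = 0.255). Dnah5, a heavy chain of the outer dynein arm, had 1160.3, 1383 and 1433 units in Has2+/- ovalbumin, 1006, 995 and 1112 in Has2+/- saline, 934, 1032 and 996 in WT ovalbumin and 1200.2, 1093 and 1289 in WT saline. It rose in Has2+/- (0.35, adjusted p = 0.0385) and fell in WT (-0.27, adjusted p = 0.0355), the 1 gene of the 394 called in both that went opposite ways. Its interaction was 0.62 (adjusted p = 0.281). The dynein heavy chain Dnah6 had an interaction of 0.58, Spef2, a protein of sperm tails and cilia, 0.70, and Dnah9, a further outer arm chain, 0.51 (adjusted p = 0.281, 0.281 and 0.347).

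All 10 tested genes of the ciliated cell list had a positive interaction, with a median of 0.38, against 0.02 over all genes. In limma 0 of the 10 passed, and 5 were above 0 at an unadjusted p below 0.05, against 5.1% of all genes. The median change was 0.21 in Has2+/- and -0.15 in WT. Foxj1, the master regulator of motile cilia, had an interaction of 0.32 (adjusted p = 0.515), and the tubulin gene Tubb4b, which is not restricted to cilia, had 0.02. The summed level of the list was 6656 to 7145 units in Has2+/- ovalbumin, 6057 to 6792 in Has2+/- saline, 5707 to 6456 in WT ovalbumin and 6795 to 7298 in WT saline. The sums of the 2 Has2+/- groups overlapped and those of the 2 WT groups did not. Without library 7, Hydin (0.55, adjusted p = 0.0404), Dnah5 (0.71, adjusted p = 0.0129) and Dnah6 (0.67, adjusted p = 0.0352) passed.

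The other leading genes on the higher side were Gm26981, a long noncoding RNA (1.26), Mut, a mitochondrial mutase (0.62), Rasef (0.74), Arhgap5 (0.46) and Arhgef38 (0.74), each at an adjusted p of 0.281. Mut had 298, 323 and 340.4 units in Has2+/- ovalbumin, 304, 264 and 284 in Has2+/- saline, 214, 249.9 and 248 in WT ovalbumin and 337, 299 and 337 in WT saline. As with Muc16, the WT ovalbumin libraries were the lowest of the 12.

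On the lower side the leading genes were mostly highest in WT ovalbumin, as Junb was. Cebpb, a transcription factor of inflammatory and acute-phase genes, had 422, 377 and 344 units in Has2+/- ovalbumin, 364, 399 and 377 in Has2+/- saline, 684, 553 and 592 in WT ovalbumin and 370.1, 394 and 412 in WT saline. Its WT ovalbumin values were above all others, and its change was 0.00 in Has2+/- and 0.63 in WT (adjusted p = 0.000531), with an interaction of -0.63 (adjusted p = 0.281). Zfp36, which destabilises the mRNAs of cytokines, had 902, 1006 and 787 units in Has2+/- ovalbumin, 943, 1089.8 and 996 in Has2+/- saline, 1071, 1325 and 1398 in WT ovalbumin and 965, 889 and 844 in WT saline. Its interaction was -0.66 (adjusted p = 0.281). Ninj1, which ruptures the membrane of dying cells, had an interaction of -0.74, Gpr132, a receptor of immune cells, -0.83, Rhbdf2, a partner of the protease that sheds tumour necrosis factor, -0.38, Ccdc86 -0.74, 1700017B05Rik -0.61 and Ccdc184 -1.33. Ccdc184 had a change of -0.74 in Has2+/- and 0.58 in WT, and its Has2+/- ovalbumin libraries lay below its Has2+/- saline libraries without overlap. For all of these the adjusted p was 0.281. In 6 of these 8 genes every WT ovalbumin library was above the other 9. The exceptions were Zfp36 and Ccdc184, for which 1 Has2+/- saline library reached the lowest WT ovalbumin value or passed it. Without library 7, Cebpb (-0.71, adjusted p = 0.0404) and Ninj1 (-0.85, adjusted p = 0.0427) passed.

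**Figure D4:**
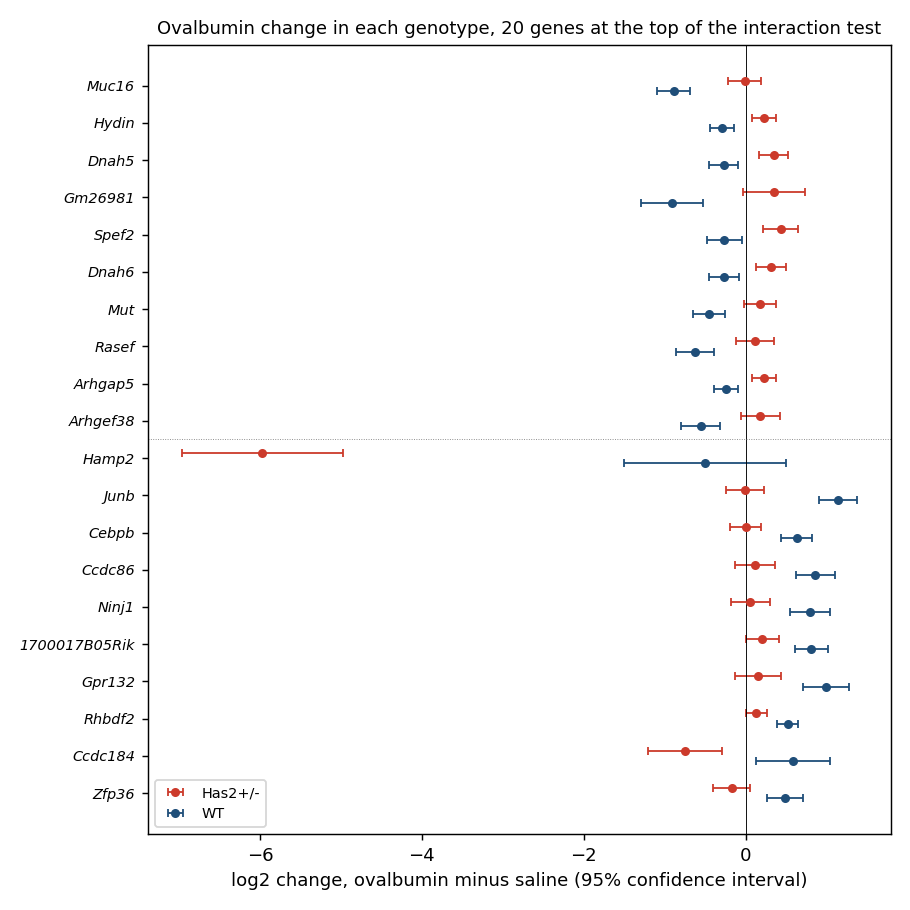
Change with ovalbumin (log2, points with 95% intervals) in Has2+/- and in WT for the 10 genes with the smallest p on each side of the interaction. The Has2+/- intervals of Junb, Muc16 and Cebpb lie about 0 and the WT intervals do not.

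Junb belongs to the immediate early genes, the first to be transcribed after a cell is stimulated. Of 15 tested, Junb was the 1 that passed, 6 were below 0 at an unadjusted p below 0.05 against 3.45% of all genes, and 13 were negative. The median interaction was -0.30. Members did not share 1 pattern across groups. Fos, the partner of Jun proteins in AP-1, had 284, 230.1 and 188 units in Has2+/- ovalbumin, 458, 327 and 364 in Has2+/- saline, 224, 213 and 243 in WT ovalbumin and 208, 108 and 95.8 in WT saline. It was highest in Has2+/- saline, unlike Junb, and its interaction was -1.52 (adjusted p = 0.419). Fos passed when library 4 was left out. Egr1, a growth-factor-induced zinc finger factor, had 538, 502 and 429.8 units in Has2+/- ovalbumin, 1007, 736 and 775 in Has2+/- saline, 438, 398 and 475 in WT ovalbumin and 517, 395 and 321 in WT saline. It too was highest in Has2+/- saline, and it fell in Has2+/- (-0.77, adjusted p = 0.0446), with an interaction of -0.88 (adjusted p = 0.428). Ier2, like Junb, was highest in WT ovalbumin, with an interaction of -0.47 (adjusted p = 0.358).

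The inhibitors and subunits of NF-kappa-B, the factor that drives many inflammatory genes, were below 0 in 12 of 13 tested genes, with a median of -0.38. In limma 0 passed, and 6 were below 0 at an unadjusted p below 0.05, against 3.45% of all genes. In Has2+/- 1 of the 13 rose with ovalbumin, against 1.85% of all genes, and in WT 10 rose, against 8.65%. The 1 in Has2+/- was Tnfaip3, an enzyme that shuts the pathway off. Tnfaip3 had 583, 451 and 404 units in Has2+/- ovalbumin, 292, 318 and 315 in Has2+/- saline, 742, 724 and 706 in WT ovalbumin and 334, 350.3 and 335 in WT saline. Both ovalbumin groups were above their saline groups, and the change was 0.62 in Has2+/- (adjusted p = 0.00694) and 1.09 in WT (adjusted p = 2.34e-05). Its interaction of -0.47 did not pass (adjusted p = 0.438), but did when library 7 was left out. Nfkbia, the inhibitor made in a feedback loop, had 1174, 1201 and 1258 units in Has2+/- ovalbumin, 1002, 1129.9 and 1089 in Has2+/- saline, 1985, 2227 and 2204 in WT ovalbumin and 1605, 1362 and 1408 in WT saline. The Has2+/- values were below the WT values in each treatment with no overlap, and the interaction was -0.38 (adjusted p = 0.398). Tnip1 had -0.42 (adjusted p = 0.358).

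Inflammatory effectors mostly had negative interactions that did not pass in limma. Of 15 proinflammatory genes 10 were negative (median -0.94), 2 of them at an unadjusted p below 0.05, against 3.45% of all genes. With ovalbumin 3 rose in Has2+/- and 10 in WT, against 1.85% and 8.65% of all genes. Lcn2, a siderophore-binding protein of neutrophils and epithelium, had 3694, 2576 and 2266 units in Has2+/- ovalbumin, 932, 1537 and 1555 in Has2+/- saline, 6179, 4569 and 4654 in WT ovalbumin and 924, 844 and 762 in WT saline. Ovalbumin values were above saline values in both genotypes, with an interaction of -1.50 (adjusted p = 0.404). Of 15 interferon-induced genes 14 were negative (median -0.42), 1 of them at an unadjusted p below 0.05, which is near the 3.45% of all genes. Cxcl10, a chemokine for T cells, had 166, 102 and 29.2 units in Has2+/- ovalbumin, 4.58, 6.17 and 6.92 in Has2+/- saline, 248, 113 and 149 in WT ovalbumin and 2.25, 0.917 and 3.17 in WT saline. It rose in both genotypes (3.56 in Has2+/-, adjusted p = 0.0101, and 5.77 in WT, adjusted p = 0.000147), and its interaction was -2.22 (95% interval -3.89 to -0.54; adjusted p = 0.514). Its saline values were at most 6.92 units in every library. Cxcl9 had -1.02 (adjusted p = 0.78). For the interferon-induced list, 2 genes rose in Has2+/- and 12 in WT, against 1.85% and 8.65% of all genes.

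All 16 tested cell cycle genes and all 13 of the unfolded protein response were negative, with medians of -0.43 and -0.15. In limma 0 genes of either list passed, and 1 cell cycle gene and 0 genes of the unfolded protein response were below 0 at an unadjusted p below 0.05, near or under the 3.45% of all genes. Mcm3, a subunit of the replicative helicase, had 409, 292 and 249.8 units in Has2+/- ovalbumin, 175, 195 and 218 in Has2+/- saline, 377, 376 and 386 in WT ovalbumin and 165, 193 and 153 in WT saline. The 2 ovalbumin groups overlapped, since library 7 had the highest value of the 12, and the interaction was -0.49 (adjusted p = 0.561). In the cell cycle list 3 genes rose in Has2+/- and 12 in WT, against 1.85% and 8.65% of all genes.

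Genes of the matrix and its remodelling were negative in 15 of 16, with a median of -0.39 and 6 at an unadjusted p below 0.05 (3.45% of all genes), and in limma 0 passed. Col1a1, a chain of type I collagen, had 11964, 10042 and 9894 units in Has2+/- ovalbumin, 6636, 7196 and 6976 in Has2+/- saline, 13138, 14230.3 and 11964 in WT ovalbumin and 6426, 7312 and 5818 in WT saline. It rose in both genotypes, by 0.61 in Has2+/- (adjusted p = 0.00505) and 1.01 in WT (adjusted p = 2.81e-05), and the ovalbumin groups met at 1 shared value. Its interaction was -0.40 (95% interval -0.67 to -0.13; adjusted p = 0.461). Col1a2, the other chain, had -0.41 (adjusted p = 0.387) and Mmp14, a membrane protease that cuts collagen, -0.44 (adjusted p = 0.408). Tgfb1, the cytokine that drives matrix production, had 1071, 929 and 884 units in Has2+/- ovalbumin, 848, 968 and 868 in Has2+/- saline, 1332, 1119.7 and 1141 in WT ovalbumin and 726, 906 and 762 in WT saline. Its WT ovalbumin values were above the other 9, and its interaction was -0.49 (adjusted p = 0.404). The TGF-beta list as a whole had 8 positive and 8 negative genes and a median of 0.00.

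The hyaluronan pathway had no common direction. Of 23 tested genes 12 were positive and 11 negative, the median was 0.00, 0 passed in limma and 2 were below 0 at an unadjusted p below 0.05, Vcan and Stab1, against 3.45% of all genes. Has2 had an interaction of -0.14 ± 0.57 (SE; 95% interval -1.36 to 1.07; adjusted p = 0.96). The other synthases Has1 and Has3 had -0.58 (adjusted p = 0.742) and 0.30 (adjusted p = 0.753). Cd44, the main receptor, had 2169.5, 1677 and 1662 units in Has2+/- ovalbumin, 1433, 1443 and 1615 in Has2+/- saline, 2242, 2006 and 1901 in WT ovalbumin and 1301, 1494 and 1318 in WT saline. Ovalbumin was above saline in both genotypes, and the change was 0.29 in Has2+/- (adjusted p = 0.133) and 0.58 in WT (adjusted p = 0.00176), with an interaction of -0.29 (adjusted p = 0.591). Vcan, a proteoglycan that binds hyaluronan, had 516, 440.4 and 319.6 units in Has2+/- ovalbumin, 213, 249 and 237 in Has2+/- saline, 596, 467 and 517 in WT ovalbumin and 162, 197 and 175 in WT saline. It rose by 0.84 in Has2+/- and 1.56 in WT, and its interaction was -0.72 (adjusted p = 0.434). Itih5, an inter-alpha-trypsin inhibitor heavy chain of the family that attaches to hyaluronan, fell by 1.16 in Has2+/- and by 1.28 in WT, with an interaction of 0.12 (adjusted p = 0.944).

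The hallmark genes of allergic lung did not pass the interaction test, and their intervals were wide. Ccl11, the eosinophil chemokine eotaxin, had 94.1, 115 and 75.9 units in Has2+/- ovalbumin, 21.7, 16.2 and 26.2 in Has2+/- saline, 123, 61.3 and 124 in WT ovalbumin and 17.1, 21.6 and 19.6 in WT saline. It rose by 2.11 in Has2+/- and 2.28 in WT, and the interaction was -0.17 (95% interval -0.96 to 0.62; adjusted p = 0.927). Muc5ac, the secreted mucin of goblet cells, had 733, 596 and 1097 units in Has2+/- ovalbumin, 48.2, 84.8 and 97.2 in Has2+/- saline, 937, 664 and 275 in WT ovalbumin and 59.4, 44.8 and 68.8 in WT saline. It rose by 3.39 in Has2+/- and 3.27 in WT, and the interaction was 0.13 (95% interval -1.42 to 1.67; adjusted p = 0.971). For both genes each ovalbumin library exceeded each saline library. Retnla, a product of alternatively activated macrophages and epithelium, had an interaction of -0.49 (95% interval -2.19 to 1.2), and Clca1, a goblet cell secretion, -0.44 (95% interval -4.06 to 3.17). The signs of Ccl11, Muc5ac, Retnla, Clca1 and Has2 turned when libraries 3 and 12 were left out.

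The lists behind these genes gave 0 calls in limma as well. Of 13 type 2 cytokine and chemokine genes 8 were negative (median -0.29), of 14 goblet cell genes 6 (median 0.14) and of 12 alternative macrophage genes 9 (median -0.32). At an unadjusted p below 0.05 there were 1, 0 and 1 genes, all lower, which is near the 3.45% of all genes and no result about these lists. Alox15, a lipoxygenase of eosinophils and macrophages, rose in both genotypes (1.5 in Has2+/- and 2.35 in WT), and its interaction was -0.85 (adjusted p = 0.506). Il4ra, a chain of the receptor for interleukins 4 and 13, had 1684, 1582 and 1558 units in Has2+/- ovalbumin, 1373, 1666 and 1467 in Has2+/- saline, 2421, 2152 and 1914 in WT ovalbumin and 1349, 1499 and 1332 in WT saline. WT ovalbumin lay above the other 9 libraries, and the interaction was -0.53 (adjusted p = 0.281). C3, the central complement component, rose in both genotypes, by 1.26 in Has2+/- and 1.47 in WT, with an interaction of -0.21 (95% interval -0.72 to 0.30; adjusted p = 0.839).

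Markers of fat cells were positive in all 12 tested genes, with the highest median of the 44 lists, 1.58. In limma 0 passed, and 7 were above 0 at an unadjusted p below 0.05, against 5.1% of all genes. Adipoq, the hormone adiponectin, had 47.1, 32.7 and 55.9 units in Has2+/- ovalbumin, 36.8, 44.0 and 148 in Has2+/- saline, 19.5, 14.6 and 11.2 in WT ovalbumin and 91.9, 360.3 and 367 in WT saline. The interaction was 3.39 (95% interval 1.27 to 5.50; adjusted p = 0.439), and WT saline was high with a wide spread. The sum over the list was 2186 to 2860 units in Has2+/- ovalbumin, 3187 to 4769 in Has2+/- saline, 2249 to 2487 in WT ovalbumin and 4528 to 9039 in WT saline. With ovalbumin 0 of the 12 fell in Has2+/- and 10 fell in WT, against 0.952% and 8.05% of all genes. Cfd, which encodes the complement protease adipsin and is secreted by fat cells, had 2.24 (adjusted p = 0.506). Cardiomyocyte genes were positive in 10 of 11 (median 0.51), with 5 at an unadjusted p below 0.05, against 5.1% of all genes, and 0 called in limma. Their sums were 5643 to 7089 units in Has2+/- ovalbumin, 8246 to 11657 in Has2+/- saline, 4219.8 to 4588 in WT ovalbumin and 9601 to 11782 in WT saline. Without library 12, Cidec, a lipid droplet protein (1.84), and Myl7, an atrial myosin light chain (1.09), passed, both at an adjusted p of 0.0252. The fat cell list shares Cidec and Fabp4 with the alveolar macrophage list. How much fat or heart muscle each piece of lung carried was not tested.

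**Figure D5:**
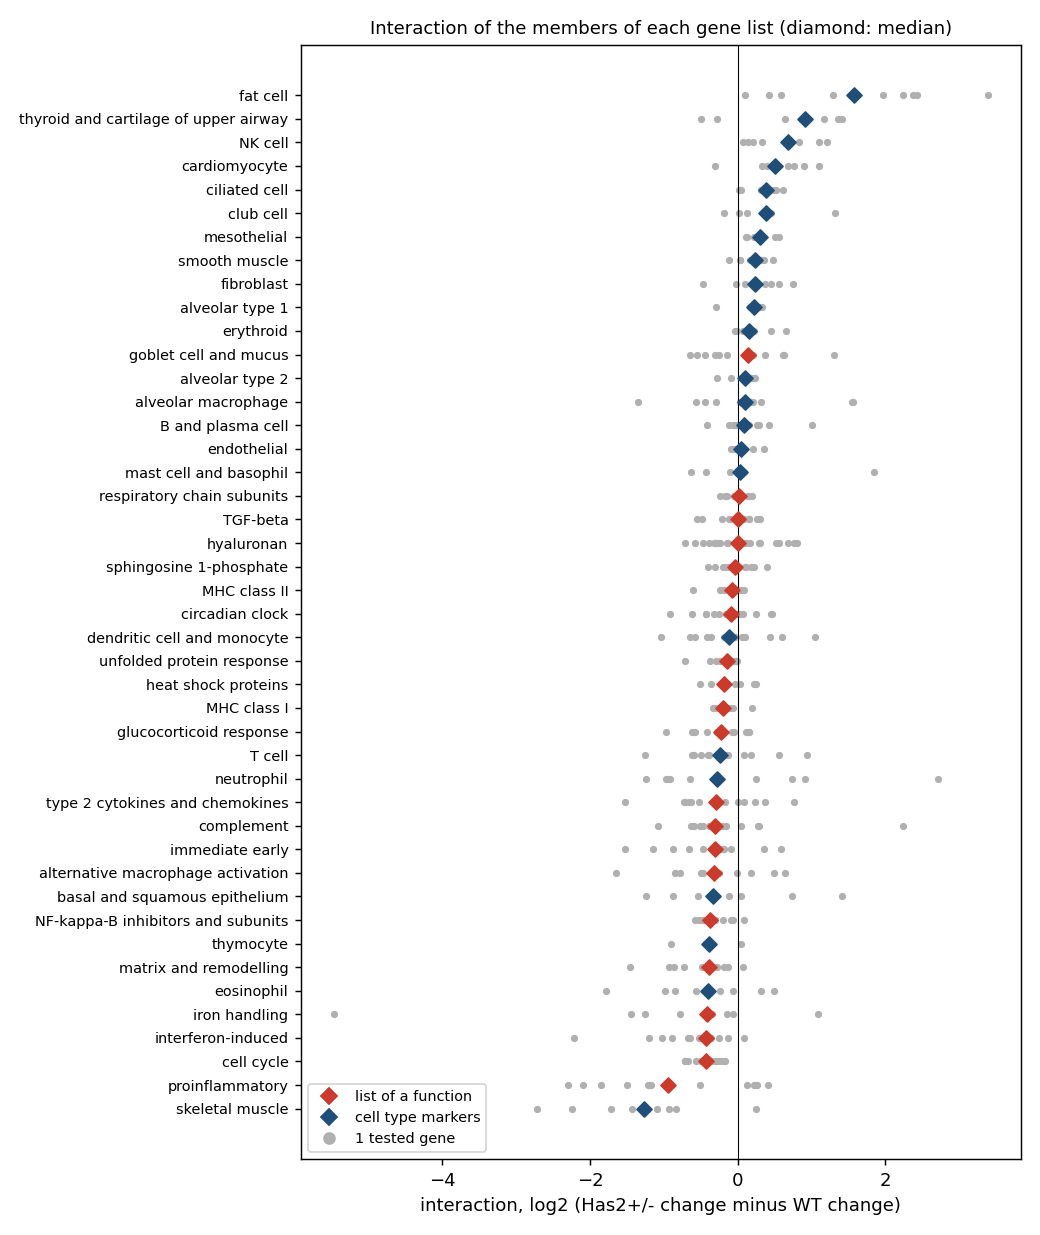
Interaction (log2) of every tested member of the 44 gene lists, with the median of each list as a diamond, red for functions and blue for cell types. Fat cell markers have the highest median (1.58), and all cell cycle genes lie below 0.

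In limma 0 genes of the other cell type lists passed either. All 9 natural killer cell genes were positive (median 0.69), 3 at an unadjusted p below 0.05 against 5.1% of all genes, among them the granzyme Gzma (0.72, adjusted p = 0.506) and the receptor Ncr1 (0.84, adjusted p = 0.543). Their sums overlapped between groups, at 371 to 469 units in Has2+/- ovalbumin, 261 to 433 in Has2+/- saline, 328 to 441 in WT ovalbumin and 379.8 to 510.3 in WT saline. The dendritic cell and monocyte list had 5 positive and 7 negative genes (median -0.11), and at an unadjusted p below 0.05 it had 2 above 0 and 1 below 0, against 5.1% and 3.45% of all genes. Clec9a, of cross-presenting dendritic cells, had 384, 358 and 407 units in Has2+/- ovalbumin, 392, 337 and 427 in Has2+/- saline, 246, 275 and 298 in WT ovalbumin and 437, 448 and 360 in WT saline. WT ovalbumin was lowest, and the interaction was 0.60 (adjusted p = 0.342). Of 8 eosinophil genes 6 were negative (median -0.40), 3 of them at an unadjusted p below 0.05, against 3.45% of all genes. The mesothelial list was positive in 7 of 7 (median 0.31) and the club cell list in 7 of 8 (median 0.38). Fibroblast genes were positive in 7 of 9 (median 0.23). Of all genes, 47.7% were below 0. At an unadjusted p below 0.05 in limma, 1 mesothelial, 2 club cell and 3 fibroblast genes were above 0, against 5.1% of all genes. On the other side 1 fibroblast gene was below 0, against 3.45% of all genes.

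The remaining lists had medians on both sides of the 0.02 over all genes. The respiratory chain, which carries out oxidative phosphorylation, had 7 positive and 7 negative genes, a median of 0.02 and 0 genes at an unadjusted p below 0.05. Sphingosine 1-phosphate genes had a median of -0.04 and circadian clock genes -0.09. Glucocorticoid response genes, which include the receptor gene Nr3c1, had -0.22. Heat shock proteins had -0.19, class I and class II antigen-presentation genes -0.19 and -0.07, and complement genes -0.30. Endothelial genes had 0.04, smooth muscle genes 0.24, alveolar type 1 genes 0.22, alveolar type 2 genes 0.11, B and plasma cell genes 0.08 and T cell genes -0.23. Neutrophil genes had a median of -0.27, alveolar macrophage genes 0.10, mast cell and basophil genes 0.03 and erythroid genes 0.15. The 3 thymocyte genes had -0.38 and the 6 thyroid and cartilage genes 0.91. Both lists were low, summing to 49.2 to 119 units per library for thymocyte and 15.3 to 58.8 for thyroid and cartilage genes. Up to 4 of those 6 were at 0 in a library. Squamous epithelium and skeletal muscle genes had medians of -0.33 and -1.27 with 0 genes at an unadjusted p below 0.05 in either list.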

How the data were processed

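RNA of whole mouse lung was sequenced in 12 libraries, per the labels' protocols from directional kits. The submitters' processing notes name the mm10 build, while no aligner, counting program or strand setting is given in the sources used here. The values used are a signal per gene that the authors normalized, per the file headers. From the values, the 12 columns hold 1 identical distribution (largest difference of sorted columns 0), so they are quantile normalized. The other 12 per-sample columns, transformed values, were not used. Column names carry a group code and a running number that matches no title, so libraries were assigned to groups only. Spearman correlations were 0.971 to 0.990 within groups and 0.954 to 0.990 between groups, so the 2 ranges overlapped. Library 3 correlated more with WT saline library 4 (0.984) than with the other libraries of its group (0.971 and 0.974). Library 12 correlated more with Has2+/- ovalbumin library 8 (0.987) than with the other libraries of its group (0.979 and 0.981).

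Values were analysed as log2(value + 1) with limma 3.58.1 in R 4.3.3, since they are not counts. All 12 libraries were fitted with 1 mean per group, the trend and robust options and no covariate, on genes whose mean reached 1 unit in any group. Tests were two-sided contrasts adjusted by Benjamini and Hochberg over all 19017 genes, at a threshold of 0.05. The same steps were tested on simulated data, with changes placed only in genes of higher mean level. That test did not cover a gene listed at 0 in most libraries, as Hamp2 was. Named genes were the 10 with the smallest interaction p in each direction among genes whose mean reached 10 units in any group, genes named whatever their values, and the members of each list with the smallest p. The members, lists and tests were chosen with earlier results of these data known. The lists (21 of functions, 23 of cell types, 506 genes) are described by counts and medians. Other genes named for contrast were chosen after their values were seen. Gene positions were matched to GENCODE M21 by identifier (18975 of the tested genes). Alternatives were the pseudocount, the filter, the empirical Bayes options, array weights, median-of-ratios scaling, leaving out libraries, and a covariate.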

Additional observations from a re-analysis of the deposited data

Results flagged for a closer look

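In the main setting, the test of the difference itself gave an adjusted p below 0.05 (limma) in 3 genes. Under the 21 alternatives Hamp2 passed in 16, Junb in 7 and Muc16 in 3. The interaction was -5.47 for Hamp2, -1.14 for Junb and 0.88 for Muc16 (log2). For Hamp2 a single group, Has2+/- saline, was above 0 in every library, and its near-identical copy Hamp did not share the pattern. The WT saline values of Hamp2 were already at or near 0, so a fall with ovalbumin in WT could hardly be seen. For Junb and Muc16 the WT groups separated and the Has2+/- groups overlapped.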

How the results depend on the processing

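No paired analysis was possible because the columns carry a running library number that matches no title. The count of genes with a higher interaction (1) was 0 with a pseudocount of 0.1 or 5, a minimum mean of 10, median-of-ratios scaling or without libraries 3 and 12, and 2 without the trend and robust options. The lower count (2) was 0 with a pseudocount of 0.1, a minimum mean of 10 or without libraries 3 and 12, and 1 with median-of-ratios scaling. Equal or similar counts did not mean the same genes. Without the trend and robust options the calls were Gm3164, Gm43194, Gm45437, Hamp2 and Slc32a1. Muc16 (adjusted p = 0.22, limma) and Junb (adjusted p = 0.166, limma) did not pass there. With no filter Gm43194, Hamp2 and Junb were called, and Muc16 was not (adjusted p = 0.105, limma). Leaving out 1 library gave 0 to 10 higher and 0 to 15 lower genes. The most were called without library 7, none without library 10 or library 11, and Hamp2 in the other 10. The Has2+/- response was 44 higher and 7 lower genes without the trend and robust options, and 60 higher and 26 lower with the squamous covariate, which was chosen after seeing the data. Its lower count was 97 with no filter, 286 with array weights and 510 without libraries 3 and 12. Without 1 library it gave 42 to 540 higher and 9 to 356 lower genes: the higher count was 540, 87, 189, 42 and 91 without libraries 1, 7, 8, 10 and 11, and the lower count moved by over 1.5 times without any library except 2 and 9, reaching 316 without library 3 and 16 without library 7. The WT response was 949 higher and 956 lower genes with the covariate and 963 lower without the trend and robust options. Without 1 library it gave 918 to 1780 higher and 735 to 1737 lower genes, with 918 and 735 without library 1, 961 and 847 without library 6, and 1004 and 933 lower without libraries 4 and 5. Without libraries 3 and 12 the interaction turned in sign for Ccl11 (0.15), Clca1 (0.0132), Has2 (0.15), Muc5ac (-0.18) and Retnla (0.0314). Leaving out 1 library also turned signs, over -1.64 to 0.37 for Clca1, -0.48 to 0.18 for Has2, -0.38 to 0.50 for Muc5ac, -0.90 to 0.14 for Retnla and -0.39 to 1.44 for Chil4. None of these genes passed the interaction test under any setting. The cause of these moves was not tested. With 3 libraries per group and no known depth, precision was limited. At the median half-width of 0.52, the 95% interval of a smaller interaction included 0. The width differed between genes. Hydin, at 0.52, had an interval of 0.32 to 0.72, yet did not pass (adjusted p = 0.255, limma).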
